A study of Homo sapiens with 6 samples.

Results

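The genes described here are 9 genes of the interferon response, chosen by name: the interferon-stimulated genes IFITM1, IFITM2, IFITM3, IFI6, ISG15, IFIT1 and IFIT3 and the transcription factor genes STAT2 and IRF9. They are 9 of the 59609 gene names in the deposited tables, and 8 of them reached the level needed for a test, which 16598 genes did. All samples were 95D cells, an established line from a human lung cancer, of genotype WT. Cells were seeded for 24 h in complete medium. The control was then kept for 48 h in control DMEM, the glucose-deprived cells in DMEM without glucose and the glutamine-deprived cells in DMEM without glutamine, both with 10% dialyzed serum. For control the labels mention fetal bovine serum, not dialyzed, so nutrient and serum cannot be told apart in a comparison with control. No interferon or virus was added to any group, as far as the labels say. The values come from 5 libraries, 2 of control, 2 of glucose deprivation and 1 of glutamine deprivation. The labels do not say whether replicates were grown as separate cultures. The p-values therefore reflect only how far these samples spread, which may be technical.

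Interferons are secreted proteins that warn cells of infection. Type I interferons bind the receptor chains IFNAR1 and IFNAR2, whose kinases JAK1 and TYK2 phosphorylate STAT proteins. STAT2 joins IRF9 in a complex called ISGF3, which binds a DNA element, the interferon-stimulated response element (ISRE), in the promoters of antiviral genes. Tumour cells often transcribe some of these genes without added interferon.

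Levels are given in FPKM, fragments scaled to transcript length and library size, further divided by a scaling factor per library, so they can be compared between genes as well as between libraries. Inferred depth was between 34530000 and 48930000 reads per library. Across the 16598 genes, which are not independent replicates, r between replicates on the log2 scale was 0.991 in control and 0.985 without glucose. The carcinoma and mesenchymal markers KRT8, KRT18, VIM and CDH2 were detected in every library, with VIM at 76.97 ± 1.06 FPKM in control, 142.8 ± 10.8 FPKM without glucose and 85.1 FPKM without glutamine, whereas the epithelial marker genes EPCAM and CDH1 stayed at or below 0.249 FPKM and KRT19 was listed at 0. None of the 7 leukocyte markers and none of the 6 endothelial or red cell markers reached 1 FPKM in any library. The leukocyte list summed to between 1.002 and 1.51 FPKM per library, with PTPRC at most at 0.00459 FPKM. The 6 fibroblast markers summed to 1.51 and 1.18 FPKM in control, 0.640 and 0.630 FPKM without glucose and 2.76 FPKM without glutamine, of which COL1A1 made up 1.83 FPKM in the last. DCN stayed at or below 0.00825 FPKM. LUM stood at 0.367 FPKM in control, 0.0578 without glucose and 0.270 without glutamine, and COL3A1 at 0.318, 0.173 and 0.581. KRT18 went from 21.3 FPKM in control to 17.5 without glucose and 16.9 without glutamine, and KRT8 from 4.38 to 5.18 and 5.15. Markers of the carcinoma and fibroblast lists, VIM and COL1A1 among them, thus moved with the deprivations, and their part in the results was not tested. In bulk RNA fewer cells of a type and less RNA per cell cannot be told apart.

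The 9 genes covered a wide range of levels in control medium. IFITM1 was the highest at 15.3 ± 2.07 FPKM (mean ± SD, n = 2), above 81.8% of tested genes. IFI6 (4.94 ± 0.433 FPKM), IFITM2 (4.24 ± 0.753), STAT2 (4.09 ± 0.152) and ISG15 (3.42 ± 0.00243) followed, near the middle of the tested genes. IFIT1 (1.67 ± 0.214 FPKM), IFITM3 (1.49 ± 0.272) and IRF9 (1.08 ± 0.00377) were low. IFI6 and IFITM2, IFITM2 and STAT2, and IFIT1 and IFITM3 did not differ beyond their spread. IFIT3 stood at 0.301 and 0.182 FPKM, below the minimum of 1 FPKM in any library, and was not tested.

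**Figure D1:**
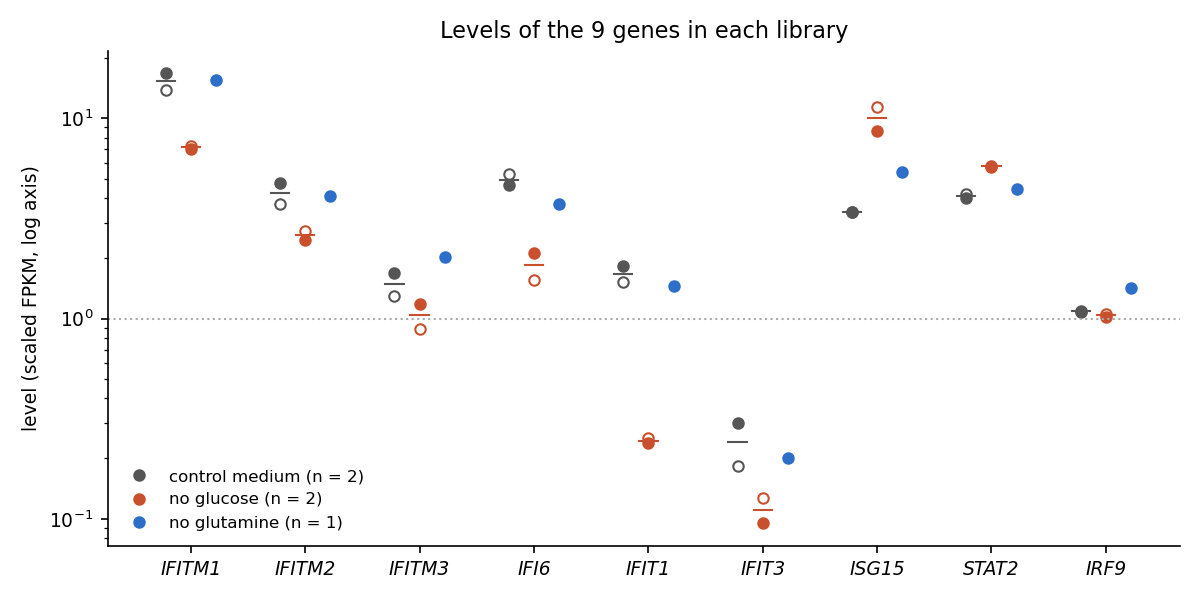
Level of each of the 9 genes in each library, as scaled FPKM on a log axis. Filled circles are replicate 1, open circles replicate 2 and short lines the mean of 2 libraries; the dotted line marks 1 FPKM. Glucose deprivation lies below control for 7 genes and above it for ISG15 and STAT2, and the glutamine-deprived library lies near control for most.

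Removal of glucose moved these genes in opposite directions. Of the 8 tested, IFITM1, IFITM2, IFI6 and IFIT1 fell, ISG15 and STAT2 rose, and IFITM3 and IRF9 did not pass the test. Calls are adjusted p-values under 0.05 from limma, with Benjamini-Hochberg adjustment over all genes tested. By that rule 28.3% of all tested genes were lower and 26.6% higher, 54.9% in either direction, so a count of 6 of 8 is not far from the background. The median log2 fold change of the 8 genes was -0.41 against 0.02 over all tested genes. Both deprived libraries lay outside the range of both controls for all 9 genes, 2 above and 7 below. That also held for 78.2% of tested genes, 40.2% above and 38.1% below.

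The IFITM genes encode small membrane proteins that hinder the fusion of viruses with the cell. IFITM1 measured 16.8 and 13.8 FPKM in control, 7.04 and 7.25 FPKM without glucose and 15.6 FPKM without glutamine. The glucose-deprived pair was thus about alike and well below the other 3 libraries, which overlapped. Its level fell 2.14-fold without glucose, a log2 fold change of -0.996 ± 0.09 (± SE, adjusted p = 6.55e-05), where fold changes in log2 are on the log2(FPKM + 1) scale and understate changes of genes of low abundance. IFITM2 measured 4.77 and 3.71 FPKM in control, 2.47 and 2.74 FPKM without glucose and 4.08 FPKM without glutamine. It fell as well, by 0.53 ± 0.12 on the log2 scale (adjusted p = 0.00502). This call was lost without control replicate 1 (-0.39, adjusted p = 0.0658), without glucose deprivation replicate 1 (-0.48, adjusted p = 0.0637) and with no filter on low values (adjusted p = 0.0992). IFITM3 measured 1.68 and 1.30 FPKM in control and 1.19 and 0.886 FPKM without glucose, and its difference of -0.29 ± 0.14 did not pass (adjusted p = 0.124).

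The IFITM genes lie side by side on chromosome 11 (GRCh38, GENCODE release 29): IFITM2 from 307631 to 315272 and IFITM1 from 313506 to 315272, both on the plus strand, and IFITM3 from 319669 to 327537 on the minus strand. An isoform annotated for IFITM2 runs into IFITM1, so that they share 351 exonic bases, and 20.7% of the 150-base windows of IFITM1 transcripts also occur in IFITM2 transcripts. No 150-base window of IFITM3 occurs in another gene, but 21.3% of its exonic bases lie opposite a long non-coding RNA. How reads were split between these genes is not stated. The summed level of the 3 genes was 23.2 and 18.9 FPKM in control, 10.7 and 10.9 FPKM without glucose and 21.7 FPKM without glutamine, and it fell by 0.90 ± 0.09 log2 without glucose (adjusted p = 0.000102). IFITM1 made up 72.2% and 73.4% of that sum in control, 65.8% and 66.7% without glucose and 71.9% without glutamine. The other family members were low, with IFITM10 at most at 0.352 FPKM and IFITM5 listed at 0.

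IFI6 encodes a small protein of intracellular membranes that counters cell death and viral replication. It measured 4.64 and 5.25 FPKM in control, 2.13 and 1.56 FPKM without glucose and 3.74 FPKM without glutamine. It fell 2.68-fold without glucose, by 1.07 ± 0.13 on the log2 scale (adjusted p = 0.000305). The glutamine-deprived library lay between the other groups. These levels rest on about 46 to 216 reads per library, if reads cover the whole exonic length of the gene, which gives counting errors of 6.81% to 14.7%. IFI6 lies on chromosome 1 from 27666061 to 27672218 on the minus strand.

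The IFIT genes encode proteins that bind foreign RNA and block its translation. IFIT1 measured 1.83 and 1.52 FPKM in control, 0.238 and 0.253 FPKM without glucose and 1.45 FPKM without glutamine. The glucose-deprived libraries stood apart from the other 3, which lay close together. The mean level was 6.82-fold lower without glucose than in control, the largest ratio among the 9 genes, and the log2 fold change was -1.10 ± 0.10 (adjusted p = 5.49e-05), or -2.36 with a pseudocount of 0.1. About 40 and 41 reads support the glucose-deprived values and 249 to 334 the others.

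IFIT3, which forms a complex with IFIT1, measured 0.301 and 0.182 FPKM in control, 0.0951 and 0.126 FPKM without glucose and 0.200 FPKM without glutamine. These values rest on about 9 to 27 reads, a counting error of 19.2% to 32.7%, and the difference was not tested. Of the rest of the family, IFIT5 was the most abundant. It fell from 5.27 ± 0.152 FPKM in control to 3.36 ± 0.213 FPKM without glucose (-0.52 ± 0.06 log2, adjusted p = 0.000277). Without glutamine it was also lower, at 3.96 FPKM (-0.34 ± 0.08, adjusted p = 0.00766), a call lost without control replicate 2 (0.0731), with no filter (0.0533) and under the 3 other scalings (0.0557 to 0.742). IFIT2 stood at 0.144 and 0.124 FPKM in control, 0.00658 and 0.0215 FPKM without glucose and 0.151 FPKM without glutamine, too low to be tested, and IFIT1B was listed at 0. IFIT1 lies on chromosome 10 from 89392546 to 89406486 and IFIT3 from 89327894 to 89340971, both on the plus strand.

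ISG15 encodes a ubiquitin-like protein that is attached to other proteins and is also secreted. It went the other way, from 3.42 and 3.42 FPKM in control to 8.62 and 11.4 FPKM without glucose, with 5.36 FPKM without glutamine. All 3 deprived libraries lay above both controls, and the glucose-deprived pair was the highest. The rise without glucose was 2.93-fold, 1.31 ± 0.12 on the log2 scale (adjusted p = 7.74e-05). About 109 to 370 reads support each value. ISG15 lies on chromosome 1 from 1001138 to 1014540 on the plus strand, with 3.83% of its exonic bases opposite a pseudogene.

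Of the 3 tested genes for enzymes that attach or remove ISG15, 0 rose and 2 fell without glucose. Over all tested genes 26.6% rose and 28.3% fell, so such a count is weak. Under scaling to the total 1 of 4 fell, where 67.9% of all calls were higher. HERC5, the main ligase of ISG15 in human cells, fell from 11.6 ± 0.382 to 8.23 ± 0.244 FPKM without glucose (-0.45 ± 0.05 log2, adjusted p = 0.000157) and stood at 7.20 FPKM without glutamine (-0.62 ± 0.06, adjusted p = 0.000109). USP18, the protease that removes ISG15 and also dampens interferon receptor signalling, fell from 7.51 ± 0.034 to 4.92 ± 0.673 FPKM without glucose (-0.53 ± 0.09 log2, adjusted p = 0.00119, lost with no filter at 0.0612). Without glutamine USP18 stood at 5.33 FPKM (-0.43 ± 0.11, adjusted p = 0.0103), a call lost without control replicate 1 or 2 (0.0829 and 0.0835), with no filter (0.114) and when libraries were scaled to the upper quartile (0.0611) or the total (0.489). UBE2L6, the conjugating enzyme, was low and did not pass in either deprivation. The activating enzyme gene UBA7 and the ligase relative HERC6 stayed below 1 FPKM. Under scaling to the total HERC5 lost its call in both deprivations (adjusted p = 0.053 and 0.127).

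STAT2 and IRF9 encode parts of ISGF3. STAT2 measured 3.98 and 4.19 FPKM in control, 5.78 and 5.73 FPKM without glucose and 4.42 FPKM without glutamine. The groups did not overlap and the glucose-deprived pair was the highest. The rise without glucose was 1.41-fold, 0.41 ± 0.05 on the log2 scale (adjusted p = 0.000324), on about 827 to 1317 reads per library. IRF9, the DNA-binding partner, measured 1.08 and 1.09 FPKM in control, 1.02 and 1.06 FPKM without glucose and 1.42 FPKM without glutamine. Its difference without glucose was -0.03 ± 0.09 log2 (adjusted p = 0.786) and turned to 0.03 under scaling to the total and 0.02 under upper-quartile scaling. STAT2 lies on chromosome 12 from 56341597 to 56360155 on the minus strand and IRF9 on chromosome 14 from 24161053 to 24166565 on the plus strand, where 48.4% of its exonic bases are shared with an overlapping gene model on the same strand.

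Of other STAT genes, STAT5B (0.41 ± 0.05 log2) and STAT6 (0.32 ± 0.05) rose without glucose and STAT3 fell (-0.18 ± 0.05, adjusted p = 0.014). Without glutamine all 3 rose, STAT3 by 0.19 ± 0.06 (adjusted p = 0.0245), STAT5B by 0.29 ± 0.07 (0.0071) and STAT6 by 0.22 ± 0.06 (0.023). Each of these calls was lost without control replicate 2 (0.137, 0.0616 and 0.0662) and with no filter (0.0831, 0.0799 and 0.0775). Those of STAT3 and STAT6 were also lost without control replicate 1 (0.0938 and 0.132) and with a trend over the level (0.0609 and 0.0575). STAT3 was higher without glutamine than without glucose (0.37 ± 0.06, adjusted p = 0.00156), a call that held in all alternatives run. STAT4 and STAT5A stayed below 1 FPKM. In glucose deprivation against control, STAT3 lost its call under scaling to the total (adjusted p = 0.712). STAT2, STAT5B and STAT6 kept theirs there. STAT3 also lost its call without control replicate 1, control replicate 2 or glucose deprivation replicate 1 (adjusted p = 0.121, 0.0809 and 0.0602), under upper-quartile scaling (0.118) and with no filter (0.0753).

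**Figure D2:**
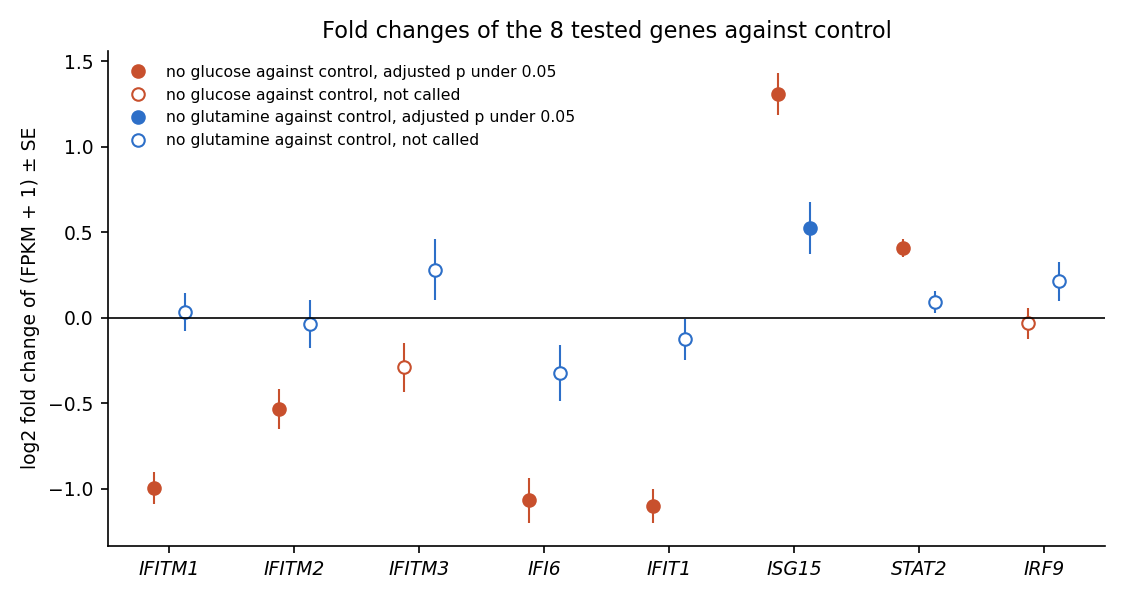
Log2 fold change of (FPKM + 1) against control, with its SE, for the 8 tested genes. Orange points are glucose deprivation (2 libraries) and blue points glutamine deprivation (1 library); filled points passed an adjusted p under 0.05. ISG15 is the gene called in both, and 5 others are called in glucose deprivation alone, which is no test of the difference between the deprivations.

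Removal of glutamine left most of these genes near control, as far as 1 library can show, for which the fit takes the spread of the other groups. ISG15 rose, 1.57-fold (0.52 ± 0.15 log2, adjusted p = 0.0202), and the other 7 tested genes did not pass, against 51.2% of all tested genes called in either direction and 24.7% called higher. The glutamine-deprived value lay above both controls for 4 of the 9 genes, below both for 2 and between them for 3. Of tested genes 90.8% lay outside, 49.2% above and 41.7% below. The ISG15 call was lost without control replicate 1 (adjusted p = 0.113) or control replicate 2 (0.118), with no filter (0.169) and with a variance trend over the level (0.0575). IFITM1 differed by 0.03 ± 0.11 log2 (adjusted p = 0.831), IFITM2 by -0.04 ± 0.14 (0.847), IFIT1 by -0.13 ± 0.12 (0.406) and STAT2 by 0.09 ± 0.06 (0.248). IFI6 at -0.32 ± 0.16 (adjusted p = 0.132), IFITM3 at 0.28 ± 0.18 (0.217) and IRF9 at 0.21 ± 0.11 (0.149) had larger values that did not pass. With other scalings the median of all genes shifted from 0.04 to between 0.17 and 0.30 log2. Under these, IFITM2 lay above 0 in each, and STAT2 passed with no scaling (0.23, adjusted p = 0.0242) and upper-quartile scaling (0.24, adjusted p = 0.0133), where IRF9 passed too, and IFITM3 passed under scaling to the total (0.49, adjusted p = 0.0369).

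The deprivations differed from each other for most of the genes, a comparison with dialyzed serum on both sides. It shares libraries with each of the comparisons above. Against glucose deprivation, the glutamine-deprived library was higher in IFITM1 (1.03 ± 0.11 log2, adjusted p = 0.000298), IFIT1 (0.97 ± 0.12, 0.000495), IFI6 (0.74 ± 0.16, 0.00709), IFITM3 (0.57 ± 0.18, 0.0309) and IFITM2 (0.50 ± 0.14, 0.0219). It was lower in ISG15 (-0.78 ± 0.15 log2, adjusted p = 0.004) and STAT2 (-0.32 ± 0.06, 0.00474), and IRF9 did not pass (0.25 ± 0.11, 0.113). These are 7 calls among 8 genes, 5 higher and 2 lower, where 44.7% of all tested genes were called in either direction, 22.6% higher and 22.2% lower. All 9 genes lay outside the glucose-deprived range, 7 above and 2 below, against 86.5% of tested genes, 44.5% above and 42% below. The IFITM3 call was lost when any of the 4 control and glucose deprivation libraries was left out (adjusted p between 0.052 and 0.12), with the replicate block (0.0808), with a trend over the level (0.0539) and with no filter (0.122). IFITM2 lost its call without glucose deprivation replicate 1 or 2 (0.117 and 0.0719), with a trend over the level (0.0566) and with no filter (0.153). IFI6 and ISG15 lost theirs with no filter (0.0868 and 0.0951), where IRF9 passed (0.0423), as it did with no scaling (0.0487). STAT2 lost its call under scaling to the total (-0.15, adjusted p = 0.579).

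The promoters of the stimulated genes were searched for the ISRE. These genes were chosen as interferon-stimulated, so the element that ISGF3 binds was likely to be found, and its presence is no independent result. RefSeq promoter entries (GRCh38.p14) matched 8 of the 9 genes by symbol, all but IFITM2, and the 250 bases before each start were searched for the ISRE core, written as GAAA, any 2 bases and GAAA again, or TTTC, any 2 bases and TTTC on the other strand. It occurred in all 6 of the stimulated genes that had an entry and in neither STAT2 nor IRF9. Of all 35116 promoter entries 3.02% held it. Starts are those of RefSeq, which lie inside the GENCODE genes given above. With 20 flanking bases, the matches of IFITM1 and IFITM3 lie wholly in GENCODE exons, 50 and 67 bases. Those of IFI6 and ISG15 hold 0 exonic bases, that of IFIT1 4 and those of the 2 IFIT3 starts 11 and 24. IFI6 held 3 matches, ISG15 2 that overlap, IFIT1 2 and each of the 2 annotated starts of IFIT3 2. The stretches around them are printed because genes that fell and the gene that rose carry the same element. They read 5′ to 3′ on the strand of the gene, with the matches in capitals and 20 flanking bases on each side.
IFI6, fell without glucose, chr1:27672256-27672368, minus strand: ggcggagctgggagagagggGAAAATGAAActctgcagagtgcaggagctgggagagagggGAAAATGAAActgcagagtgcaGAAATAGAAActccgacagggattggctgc
IFIT1, fell without glucose, chr10:89392487-89392549, plus strand: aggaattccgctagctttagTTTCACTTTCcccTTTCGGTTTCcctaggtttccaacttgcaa
IFIT3 start 1, not tested, chr10:89327821-89327904, plus strand: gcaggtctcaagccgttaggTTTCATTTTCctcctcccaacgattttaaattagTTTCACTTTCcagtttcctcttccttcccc
ISG15, rose without glucose, chr1:1013364-1013419, plus strand: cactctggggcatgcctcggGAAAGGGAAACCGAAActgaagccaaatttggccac
The matches of IFITM1 and IFITM3 were GAAATAGAAA from 40 to 31 bases before the start of IFITM1, and GAAAAGGAAA from 52 to 43 and GAAACCGAAA from 35 to 26 bases before that of IFITM3. The 10 bases GAAACCGAAA thus occur both before ISG15, which rose, and before IFITM3, which did not pass, and IFIT1 holds the same letters on the other strand, TTTCGGTTTC.

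**Figure D3:**
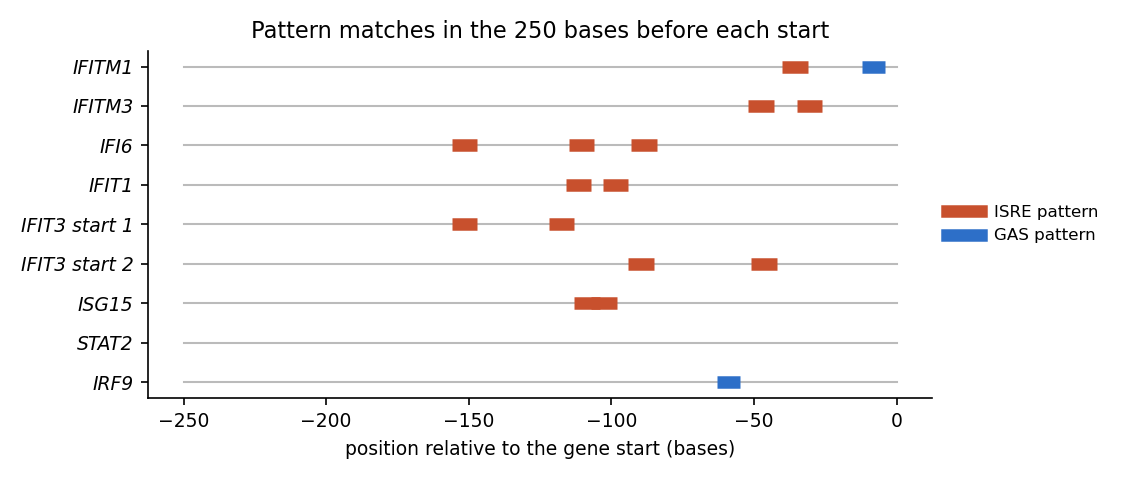
Positions of pattern matches in the 250 bases before each RefSeq start, in bases from that start at 0. Orange bars are matches to the ISRE core and blue bars matches to the gamma-activated site pattern TTCNNNGAA. STAT2 has neither, IRF9 has a gamma-activated site pattern from 63 to 55 bases before its start and IFITM1 has both kinds.

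The gamma-activated site, to which STAT dimers bind, was searched as TTCNNNGAA, which reads the same on both strands. It occurred before IFITM1 and IRF9 and in 6.57% of all entries. Over the transcriptome the shares called among genes with the core were near those of all genes with an entry, as a description with no test. Of 9832 tested genes with a promoter entry, 36.5% were called lower and 27.2% higher without glucose, and of the 282 that held the core, 36.9% were lower and 28.01% higher. A match is a description of the letters in this window and does not show that a factor binds there.

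Other interferon-stimulated genes were mostly below the filter, and more of those tested fell than rose without glucose. Of 65 further genes on the list 23 passed the filter, 12 of which fell and 1 rose without glucose, with a median log2 fold change of -0.26 against 0.02 for all tested genes, of which 28.3% fell and 26.6% rose. Under scaling to the total, 7 of 26 fell and 1 rose. With that scaling 5490 genes were called over all, instead of 9113, and 67.9% of the 5490 were higher. ZC3HAV1, the zinc finger antiviral protein that targets viral RNA for decay, had the largest change among those with a mean log2 level of at least 2. It measured 12.8 and 13.9 FPKM in control, 5.61 and 5.73 FPKM without glucose and 13.4 FPKM without glutamine, a log2 fold change of -1.10 ± 0.05 without glucose (adjusted p = 3.91e-06). As for IFITM1 and IFIT1, the glucose-deprived pair stood alone at the bottom. CNP, a phosphodiesterase induced by interferon, fell without glucose from 9.94 ± 0.00668 to 6.44 ± 0.417 FPKM (-0.56 ± 0.05 log2, adjusted p = 6.78e-05). Its level without glutamine was 7.65 FPKM (-0.34 ± 0.06, adjusted p = 0.00261), a call lost under scaling to the total (0.845) and with no filter (0.0533). Without glutamine 4 of the 23 rose and 6 fell, against 24.7% higher and 26.4% lower over all tested genes. Under scaling to the total 7 of 26 rose and 0 fell, where 91.1% of all calls were higher.

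Among the 42 that did not pass the filter were the antiviral genes MX1 and OAS3, at most at 0.00338 and 0.018 FPKM, and OAS1 and OAS2, listed at 0 in every library. IFI44L, also below the filter, measured 0.160 and 0.166 FPKM in control, 0.00785 and 0.0199 FPKM without glucose and 0.198 FPKM without glutamine. These genes were named after their values were seen. An ISRE core was found before 7 of the 18 genes that passed and had a promoter entry, and before 18 of the 30 that did not pass.

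**Figure D4:**
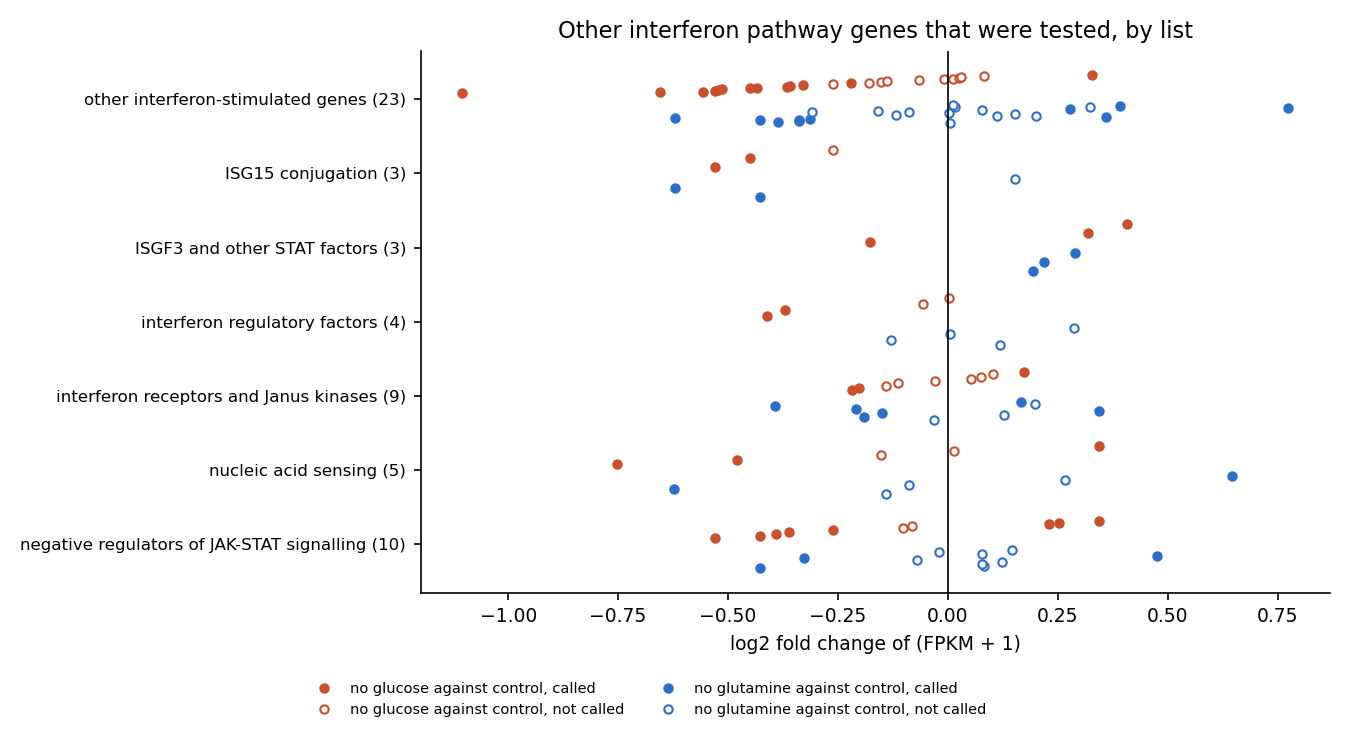
Log2 fold change of (FPKM + 1) against control for the tested genes of 7 interferon pathway lists, without the 9 genes above; the number tested is in parentheses and some genes are on more than 1 list. Filled points passed an adjusted p under 0.05. In the list of stimulated genes 12 filled orange points (glucose deprivation) lie below 0 and 1 above, and the blue points (glutamine deprivation) lie on both sides.

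The signalling chain upstream of these genes was expressed apart from its ligands. Of 21 interferon genes none passed the filter. In every library 16 were listed at 0, and the highest value was 0.164 FPKM, for IFNE. All 9 receptor and Janus kinase genes were tested, and without glucose 1 rose and 2 fell, against 54.9% called over all tested genes. Under scaling to the total 0 of the 9 were called without glucose, where 5490 genes were called over all instead of 9113. Without glutamine 2 rose and 4 fell, against 24.7% and 26.4% of all tested genes. Under scaling to the total 3 rose and 0 fell without glutamine, where 91.1% of all calls were higher. JAK1, the kinase shared by interferon receptors, went from 14.7 ± 0.172 to 12.7 ± 0.11 FPKM without glucose (-0.20 ± 0.04 log2, adjusted p = 0.00364), a call lost without control replicate 2 (adjusted p = 0.0566) and under scaling to the total (0.662). TYK2 rose from 9.09 ± 0.0474 to 10.4 ± 0.413 FPKM (0.17 ± 0.05 log2, adjusted p = 0.013), a call lost without control replicate 1, control replicate 2 or glucose deprivation replicate 2 (adjusted p = 0.106, 0.0933 and 0.0522), under scaling to the total (0.144) and with no filter (0.0707). Without glutamine JAK1 was lower too, at 12.8 FPKM (-0.19 ± 0.05 log2, adjusted p = 0.0138), and TYK2 higher, at 10.3 FPKM (0.17 ± 0.06, 0.037). Of 14 alternatives JAK1 lost that call in 4 and changed sign in 1, and TYK2 lost its call in 5. The interferon gamma receptor genes IFNGR1 and IFNGR2 differed from control by 0.08 ± 0.06 and 0.05 ± 0.05 log2 without glucose and did not pass. Without glutamine they fell by 0.39 ± 0.08 and 0.21 ± 0.06 log2 (adjusted p = 0.00318 and 0.0174), both lost without control replicate 2 (0.0547 and 0.0755). IFNGR1 also lost its call with no scaling (0.0503), with no filter (0.0843) and under scaling to the total, where its value was -0.091 (0.72). IFNGR2 lost it without control replicate 1 (0.101), with no scaling (0.475) and under upper-quartile scaling (0.538), and turned to 0.087 under scaling to the total.

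Of the 4 other tested interferon regulatory factor genes 0 rose and 2 fell without glucose, against 26.6% and 28.3% of all tested genes. Under scaling to the total 1 of 5 fell, where 67.9% of all calls were higher. IRF3, which relays virus sensing to interferon genes, went from 10.3 ± 0.186 to 7.72 ± 0.512 FPKM (-0.37 ± 0.06 log2, adjusted p = 0.000865), a call lost under scaling to the total (adjusted p = 0.135). IRF7 was at most at 0.0308 FPKM. In the list on sensing of nucleic acids 5 of 11 genes were tested, of which 1 rose and 2 fell without glucose, beside the same shares over all genes. MAVS, the mitochondrial adaptor of RNA sensors, rose from 7.11 ± 0.121 to 9.30 ± 0.431 FPKM without glucose (0.34 ± 0.05 log2, adjusted p = 0.000421) and to 11.7 FPKM without glutamine (0.65 ± 0.06, adjusted p = 6.87e-05). TBK1, the kinase that activates IRF3, fell in both, from 7.26 ± 0.19 to 4.92 ± 0.127 FPKM without glucose (-0.48 ± 0.05 log2, adjusted p = 0.000159) and to 4.36 FPKM without glutamine (-0.62 ± 0.06, adjusted p = 0.000143), the latter call lost under scaling to the total (adjusted p = 0.0897).

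Of 10 tested negative regulators 3 rose and 5 fell without glucose, against 26.6% and 28.3% of all tested genes. Under scaling to the total 1 rose and 1 fell of 11, where 67.9% of all calls were higher. USP18, described above, is on this list too and among the 5 that fell. The PIAS genes encode proteins that restrain STAT factors. PIAS4 fell without glucose (-0.39 ± 0.06 log2, adjusted p = 0.000839) and PIAS1 rose (0.34 ± 0.05, adjusted p = 0.000426). PIAS4 lost its call under scaling to the total (adjusted p = 0.0953). PIAS3 differed from control in glutamine deprivation, where it rose from 6.0 ± 0.151 to 8.73 FPKM (0.48 ± 0.07 log2, adjusted p = 0.000974).

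Likeness of patterns was measured as the Euclidean distance over the 5 libraries between log2(FPKM + 1) values, each gene centred on its control mean. IFITM1 and IFIT1 were each other's nearest neighbour among the 8 tested genes (distance 0.23), and IFI6 was nearest to IFIT1 (0.37). This scale understates changes of genes of low abundance. As ratios of mean FPKM, the falls without glucose were 2.14-fold for IFITM1, 6.82-fold for IFIT1 and 2.68-fold for IFI6. ISG15 had its nearest neighbour, STAT2, at 1.37, and lay farthest from IFI6 at 3.50. IRF9 and IFITM3 were each other's nearest at 0.44. Among 9976 or 9977 other genes with a mean log2 level of at least 2, the nearest to IFITM1 was the arrestin gene ARRDC4 (0.15), to IFIT1 NACC2 (0.09), to IFI6 ALG1L (0.19), to IFITM2 the fatty acid oxidation gene ECH1 (0.11) and to IFITM3 STK32C (0.08). The nearest to ISG15 was ASS1, the argininosuccinate synthase gene (0.23), to STAT2 the cell cycle kinase gene WEE1 (0.04) and to IRF9 HNRNPUL1 (0.03). Of these 8 genes 5 had a promoter entry, and 0 of them held the ISRE core. As 3.02% of all entries held it, 5 genes are too few for a comparison. These distances describe the 5 libraries only.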

How the data were processed

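Per the labels' protocols, ribosomal RNA was depleted and libraries were sequenced in pairs of 150-base reads. The submitters' processing notes name HISAT2 2.0.5, StringTie and the build hg38. Which annotation and strand setting the authors used is not stated. No header names the unit, and the authors' deposited values were read as FPKM because of their steps and sums. In the table of glutamine deprivation, 1 value column is headed as glucose deprivation replicate 2, could not be mapped and was not used, so 5 of 6 libraries entered. The combined table held the same values in those 5 columns.

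FPKM were divided by trimmed-mean factors between 0.96 and 1.08 (30% of log ratios and 5% of abundances trimmed at each end). Genes with at least 1 FPKM in any library were fitted on log2(FPKM + 1) with limma 3.58.1 (R 4.3.3), a coefficient per group over all 5 libraries, and variances moderated over inferred reads (FPKM times exonic length in GENCODE release 29). Tests are two-sided, adjusted with Benjamini-Hochberg over all genes tested, at a threshold of 0.05. Depth was inferred from single-exon genes of up to 20 reads, and 95.1% to 95.7% of their values were whole numbers of reads to within 0.05. The fit was also run on simulated data with few changed genes and equal scaling of libraries. These settings differ from the data, so that run says nothing on error rates here. Members and lists were chosen with earlier results of these data known. Named were all 9 members, tested STAT, IFITM and IFIT genes, up to 4 called genes of each other list with a mean log2 level of at least 2, largest change first, and the gene nearest in pattern to each member. Alternatives were other scalings, a pseudocount of 0.1, other filters, other variance moderation, each library left out and a replicate block. A gene of these lists is not reported here and was left out of their counts.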

Additional observations from a re-analysis of the deposited data

How the results depend on the processing

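In glucose deprivation 5 or 6 of the 8 genes were called under each alternative run, and IFITM1, IFI6, IFIT1, ISG15 and STAT2 were called in each alternative that tested them. The filter of at least 1 FPKM in every library left IFITM3 and IFIT1 untested, so its 5 calls are among fewer than 8 genes. The count over all genes went from 9113 to 5490 under scaling to the total and to between 5766 and 9135 with a library left out. In glutamine deprivation it was 5536 to 8460 with a library left out, against 8496. There the number of called members, 1, became 3 with no scaling, 2 under scaling to the total, 3 under upper-quartile scaling, 0 with a trend over the level, and 0 to 1 with a library left out. Between the deprivations 7425 genes became 4263 under scaling to the total, and 7 members became 4 with no filter and 5 to 6 with a library left out. The share of calls that were higher went from 48.4%, 48.3% and 50.4% in the 3 comparisons to 67.9%, 91.1% and 85.6% under scaling to the total. With no scaling it was 54.2%, 67.4% and 68.1%, and under upper-quartile scaling 60.0%, 68.3% and 62.5%. The member counts under these scalings stand beside that shift of all genes.

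Reversed signs were all of values near 0 or under another scaling. Without glucose IRF9 was at 0.026 under scaling to the total and 0.016 under upper-quartile scaling. Without glutamine IFITM2 was at 0.10 with no scaling, 0.22 under scaling to the total, 0.11 under upper-quartile scaling, 0.11 and -0.18 without control replicate 1 or 2 and 0.050 as the summed IFITM genes; IFITM1 was at 0.16 and -0.10 without control replicate 1 or 2 and -0.024 with the replicate block; under scaling to the total IFIT1 was at 0.071, IFNGR2 at 0.087 and JAK1 at 0.11. The causes were not tested. With the replicate number as a block, 8865, 7606 and 6420 genes and 6, 1 and 6 members were called; the labels do not say that numbers mark a shared batch, and deviations of same-numbered libraries correlated with r = -0.02. Leaving out glutamine deprivation replicate 2 was not run, as no column was mapped to it. Counting error limits IFIT3 and the glucose-deprived levels of IFIT1 and IFI6.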
